A study of Mus musculus with 2 samples.

Results

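A set of 10 genes of the lipid droplet surface were followed through the cells of mouse liver tumors: the perilipins Plin2, Plin3, Plin4 and Plin5, the CIDE genes Cideb and Cidec, the lipolysis inhibitors Hilpda and G0s2, the triglyceride lipase gene Pnpla2, and Fitm2. They were taken by name and not by their values, and make up 10 of the 32285 genes counted. The tumors came from C57BL/6J mice in 2 groups, 1 single-cell library each: wild-type mice (WT) and mice in which Fabp5, a fatty acid binding protein gene, was deleted in hepatocytes by Alb-CRE-ER, a tamoxifen-inducible recombinase under the albumin promoter (hKO). All mice, littermates of 6 to 8 weeks, received tamoxifen 5 times at 100 mg/kg, 3 days apart and after fasting, and were put 2 weeks later on a diet that the labels call CD-HFD, for 15 months. The labels do not say whether the WT mice carried the recombinase. Each library is a pool of 2 to 3 hepatocellular carcinomas digested with collagenase, so there are no replicates and nothing could be tested between the groups. Values hold for these pools alone, and the 95% intervals beside them cover counting error only.

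A lipid droplet is a core of triglyceride and cholesteryl ester under a single phospholipid layer, on which coat proteins sit. Perilipins shield the core from lipases, CIDE proteins let droplets fuse and, in liver, load lipid onto lipoproteins, and FIT2, the Fitm2 product, acts in the endoplasmic reticulum where droplets bud. PNPLA2 (ATGL) takes the first fatty acid off triglyceride, and G0S2 and HILPDA both bind and inhibit it. In fatty liver the droplets fill hepatocytes, and macrophages that take up lipid build them as well.

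Barcodes over the mitochondrial limit were 18.5% of WT and 36.8% of hKO. The kept cells numbered 9459 in WT and 10402 in hKO, with 48316789 and 48298750 unique molecular identifiers (UMIs), the counts of captured transcripts. They were clustered together and named by marker genes, so class names end in -like. Fabp5 itself had 79 UMIs in WT hepatocyte-like cells, 101 CPM (UMIs of a gene divided by all UMIs of the class and scaled to 1000000), and 51 UMIs, 13.8 CPM, in hKO hepatocyte-like cells. All 9 hepatocyte markers were detected in the hepatocyte-like cells of both libraries, at a summed 62654 and 63702 CPM. These cells came from different clusters: 324 of the 348 WT cells lay in cluster 20, and 813 and 288 of the 1103 hKO cells in clusters 9 and 22. Mitochondrial UMIs were 7.81% of the WT and 13.7% of the hKO hepatocyte-like total. A further cluster with both hepatocyte and cholangiocyte markers (cluster 25, 200 WT and 34 hKO cells) stayed unnamed. Hepatocyte transcripts in other cells also differed: the summed share of 12 abundant hepatocyte genes was 0.239% of the UMIs of T-like cells in WT and 0.519% in hKO, and it was higher in hKO in each of the 10 other classes compared. The libraries shared 29 barcodes among kept cells.

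The members lie on chromosomes 1, 2, 4, 6, 7, 14 and 17. The sequences below are the 250 bases before the start site of the 5 members whose level differed most between the libraries in hepatocyte-like cells, shown because these genes are the ones the comparison turns on. They are RefSeq promoters of build GRCm38.p6, 5′ to 3′ on the strand of the gene; for Hilpda and Cidec, which have 2 listed start sites, the downstream one is shown. Capitals mark the core of the hypoxia response element, ACGTG or GCGTG on either strand.
Plin2 (ENSMUSG00000028494, chr4:86670060-86670309, minus strand): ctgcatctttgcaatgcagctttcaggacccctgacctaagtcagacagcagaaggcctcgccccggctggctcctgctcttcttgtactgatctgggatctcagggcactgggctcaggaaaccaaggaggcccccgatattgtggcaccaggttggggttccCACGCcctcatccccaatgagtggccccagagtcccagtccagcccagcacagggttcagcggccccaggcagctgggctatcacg
Plin3 (ENSMUSG00000024197, chr17:56290512-56290761, minus strand): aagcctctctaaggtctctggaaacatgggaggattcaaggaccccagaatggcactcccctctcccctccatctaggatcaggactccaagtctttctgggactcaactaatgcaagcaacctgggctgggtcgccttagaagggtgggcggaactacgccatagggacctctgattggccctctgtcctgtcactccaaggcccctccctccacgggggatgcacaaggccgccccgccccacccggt
Cidec (ENSMUSG00000030278, chr6:113434765-113435014, minus strand): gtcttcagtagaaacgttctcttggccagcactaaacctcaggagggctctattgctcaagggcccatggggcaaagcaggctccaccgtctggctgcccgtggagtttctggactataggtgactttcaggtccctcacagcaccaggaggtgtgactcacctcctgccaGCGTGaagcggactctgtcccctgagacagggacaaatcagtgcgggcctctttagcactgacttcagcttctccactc
Hilpda (ENSMUSG00000043421, chr6:29272376-29272625, plus strand): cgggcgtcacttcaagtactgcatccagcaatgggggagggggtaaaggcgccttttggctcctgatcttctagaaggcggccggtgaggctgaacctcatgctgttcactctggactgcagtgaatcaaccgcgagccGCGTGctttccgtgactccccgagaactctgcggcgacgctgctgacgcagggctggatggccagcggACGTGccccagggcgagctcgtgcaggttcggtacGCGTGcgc
Fitm2 (ENSMUSG00000048486, chr2:163472630-163472879, minus strand): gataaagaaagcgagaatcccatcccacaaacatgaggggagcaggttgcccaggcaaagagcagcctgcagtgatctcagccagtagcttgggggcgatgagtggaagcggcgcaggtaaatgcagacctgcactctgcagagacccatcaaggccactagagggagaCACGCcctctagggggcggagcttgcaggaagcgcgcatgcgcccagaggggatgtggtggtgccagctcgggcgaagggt
Hilpda, a known hypoxia-induced gene, held 3 such cores in this window, at 111, 43 and 8 bases before the start. Plin2, Cidec and Fitm2 held 1 each and Plin3 none. Of the 13 windows listed for the 10 members, 7 held a core, in 6 genes, against 38.6% of all 32851 promoter windows of that length. The core motif of nuclear receptors such as the PPARs, AGGTCA on either strand, was in windows of Plin2 and Plin5, and in 14.0% of all windows. Its repeat after 1 base, AGGTCANAGGTCA, the form PPARs bind, had no match in the members' windows and was in 0.0335% of all. The E-box CACGTG, which holds the hypoxia core, was in none of them and in 6.02% of all, and CCAAT was in windows of Plin2, Plin3, Plin4 and Plin5 and in 33.8% of all. A match is a description of the letters only. In the annotation, Plin4, Cideb, G0s2 and Fitm2 overlap a gene on the other strand (Hdgfl2, Nop9, Lamb3 and 2310001K24Rik). The partners had 0 to 44 UMIs in the hepatocyte-like cells of either library, with strand use in counting not given in the sources used here.

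Plin2, the perilipin of most cell types, was found in every class. In WT its level was 1098 CPM in hepatocyte-like cells (interval 1026.0 to 1174), then 490 in macrophage-like, 471 in monocyte-like and 453 in neutrophil-like cells. The last 3 overlapped in their intervals and lay below the hepatocyte-like level. Conventional dendritic-like (132) and endothelial-like cells (123) followed, and T-like (64.1), erythroid-like (42.0), plasmacytoid dendritic-like (34.8), NK or innate lymphoid-like (31.6) and B-like cells (22.9) were lowest. In hKO the hepatocyte-like level was 411 CPM (391 to 433), and its interval overlapped that of neutrophil-like cells (390.0 CPM, 345 to 439). Of 12462 Plin2 UMIs in kept WT cells, 30.3% lay in unnamed clusters, 27.6% in macrophage-like and 6.87% in hepatocyte-like cells. Of 8555 in hKO the shares were 14.0%, 23.2% and 17.8%. The unnamed cluster with both hepatocyte and cholangiocyte markers held 2886 of these UMIs in WT and 52 in hKO. The hepatocyte-like shares leave that cluster out, so no order between the libraries is read from them. Depth differed between classes, so cells were also thinned to 1000 UMIs each, leaving out shallower ones. Then 58.2% of 220 WT and 22.1% of 801 hKO hepatocyte-like cells held Plin2 (before thinning 60.1% and 35.2%), against 2.02% and 3.45% of B-like cells. Median depth was 1297 and 1507 UMIs in hepatocyte-like cells, 3206 and 2576 in B-like and 3699 and 3739.5 in T-like cells.

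**Figure D1:**
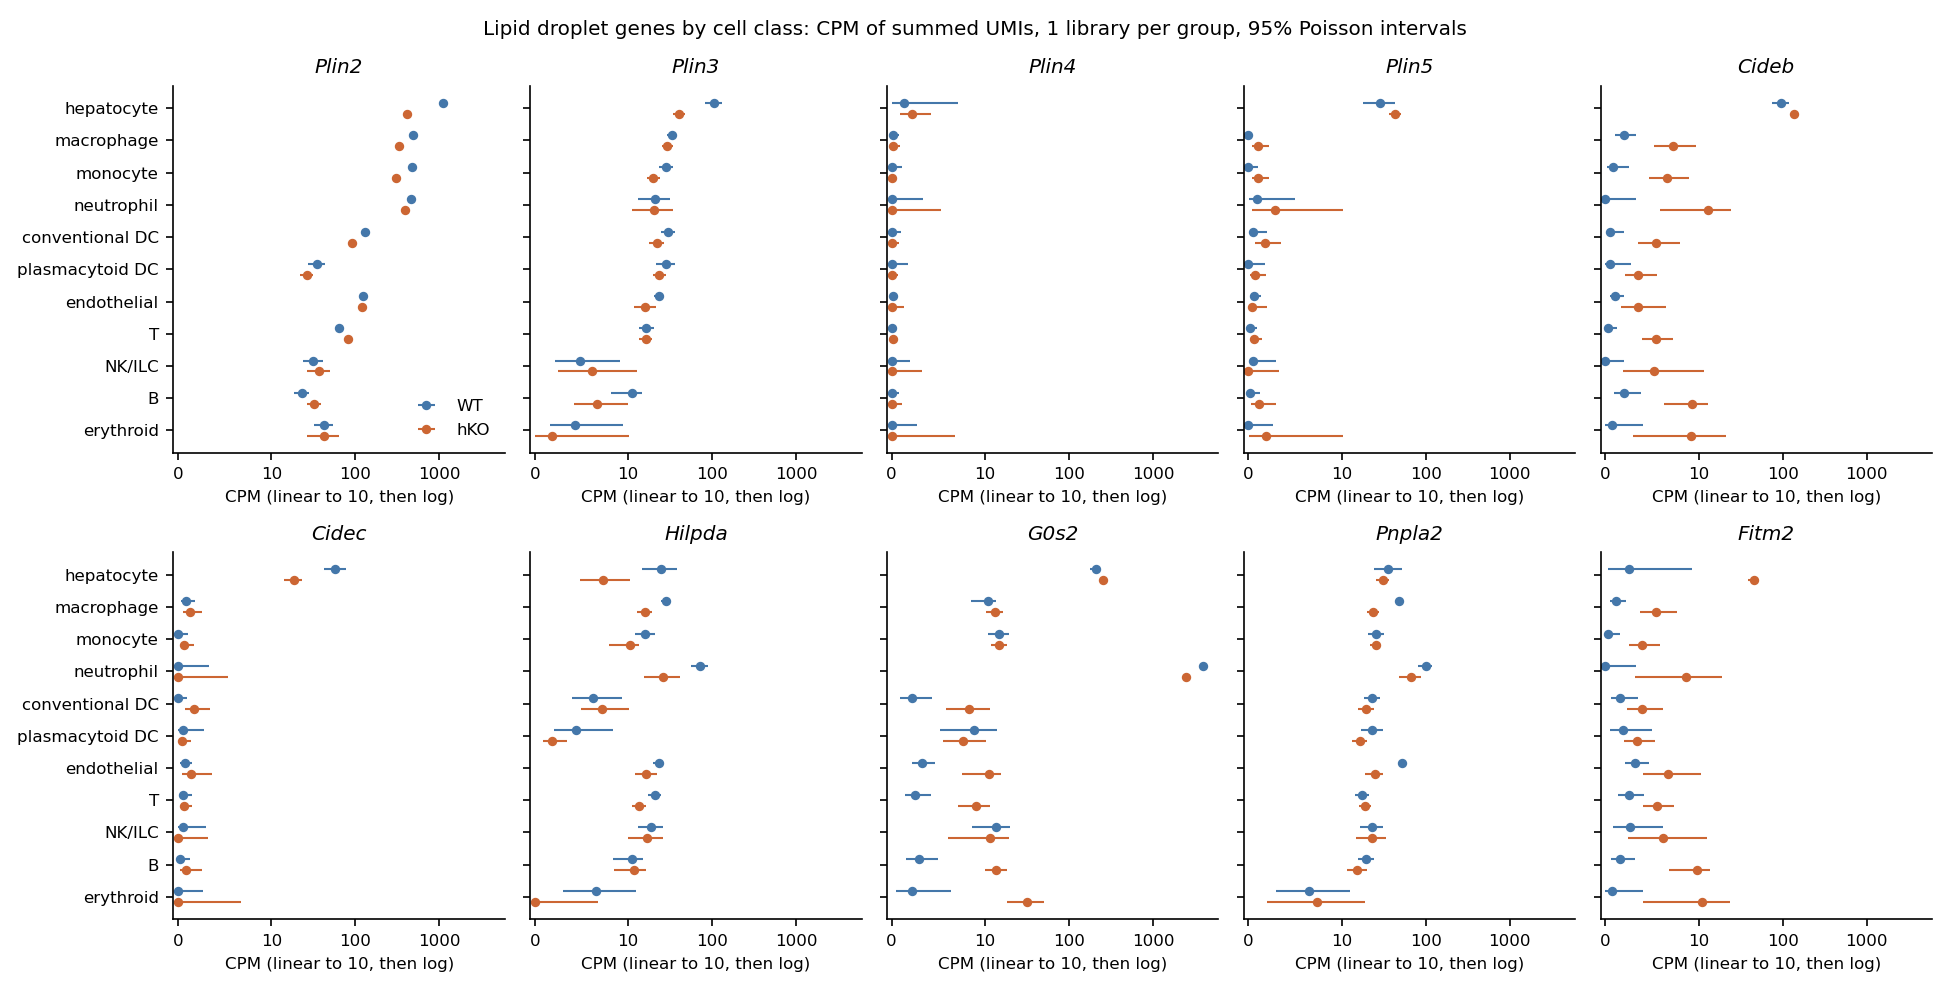
Level of each of the 10 genes (CPM, x axis, linear to 10 and logarithmic above) in 11 cell classes (y axis), with blue points for WT, orange points for hKO and bars for 95% Poisson intervals. Plin2 is seen in every class, Plin5, Cideb and Cidec are above 10 CPM mainly in hepatocyte-like cells, and G0s2 reaches 3910.2 CPM in WT neutrophil-like cells.

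The other members differed in where they were found. Plin5, Cideb and Cidec were found mainly in hepatocyte-like cells and in the mixed cluster 25; of the Cideb UMIs, hepatocyte-like cells held 24.5% in WT and 65.0% in hKO, and unnamed clusters 61.1% in WT. Plin5, the perilipin that ties droplets to mitochondria, had 28.2 CPM in WT and 42.8 in hKO hepatocyte-like cells and at most 2.88 in the 10 other classes compared. Cideb was at 96.2 and 136 CPM in hepatocyte-like cells, at 46.9 and 52.6 in cluster 25, and at 12.95 CPM or less in the 10 other classes compared. Cidec was at 57.7 and 18.4 CPM, at 12.8 and 12.5 in cluster 25, and at most at 1.75 in those 10 classes. Fitm2 was at 45.5 CPM in hKO hepatocyte-like cells at 21.6 in WT cells of cluster 25, and at 11.0 or less in the 10 other classes of either library. Plin4 was near absent, with 6 UMIs in all kept WT cells and 11 in hKO. Plin3, Hilpda and Pnpla2 were found broadly. Plin3, a cytosolic perilipin that moves to nascent droplets, was highest in hepatocyte-like cells in both libraries (104 and 40.4 CPM). Pnpla2 and Hilpda were highest in neutrophil-like cells among the 11 classes. The hKO interval of Hilpda there (15.4 to 40.9 CPM) overlapped that of NK or innate lymphoid-like cells (16.7 CPM). It also overlapped those of endothelial-like, macrophage-like, T-like and B-like cells. Within hKO, Hilpda was higher in value in cluster 25 (45.1 CPM, 18 UMIs) than in neutrophil-like cells (25.9 CPM, 18 UMIs). Kupffer-like cells were also higher in value (46.0 CPM, 25 UMIs). Their interval (29.8 to 67.9 CPM) overlapped the neutrophil-like one, and 1 cell held 10 of the 25 UMIs. G0s2 was concentrated in neutrophil-like cells, which held 86.4% of its 5002 UMIs in WT and 54.6% of 3164 in hKO. It was a leading gene of their cluster, so this height is a description.

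In hepatocyte-like cells 9 of the 10 members had the depth to be compared, at least 20 UMIs over both libraries and 10 CPM in 1. Against WT, Plin2, Plin3, Cidec and Hilpda were lower in hKO, and Fitm2 was higher. These 5 passed a 2-fold difference with an interval of the log2 ratio that excluded 0. The background was high: 42.0% of 8072 genes passed in this class, 18.6% higher and 23.4% lower, and the count of 5 of 9 members is read as no more than that. The median log2 ratio (hKO over WT) was −0.23 over the 9 members and −0.28 over all genes.

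Of the perilipins, Plin2 had 856 UMIs in WT (1098 CPM) and 1519 in hKO (411 CPM), a log2 ratio of −1.42 (−1.54 to −1.29). Plin3 had 104 CPM in WT (82.5 to 129) and 40.4 in hKO (34.1 to 47.4), a log2 ratio of −1.36 (−1.76 to −0.96). The intervals of both genes were apart between the libraries. Plin5 went the other way in value, 28.2 against 42.8 CPM, but its log2 ratio of 0.60 had an interval from −0.05 to 1.31. Plin4 had 1 and 8 UMIs, too few to compare.

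The CIDE genes split. Cidec, which drives fusion into large droplets and marks steatotic hepatocytes, had 45 UMIs in WT (57.7 CPM) and 68 in hKO (18.4 CPM), a log2 ratio of −1.65 (−2.21 to −1.07). After thinning it was in 5.45% of WT and 1.37% of hKO cells (10.1% and 3.72% before), and in 0.145% and 0% of T-like cells. Cideb, the form that normal hepatocytes use to lipidate very-low-density lipoprotein, had 96.2 CPM in WT and 136 in hKO. Its log2 ratio of 0.50 (0.15 to 0.87) was short of 2-fold.

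Hilpda had 19 UMIs in WT (24.4 CPM) and 27 in hKO (7.31 CPM), a log2 ratio of −1.74 (−2.64 to −0.81). The other ATGL inhibitor, G0s2, had 208 CPM in WT and 255 in hKO, a log2 ratio of 0.29 (0.05 to 0.54). After thinning, 18.6% of WT and 18.7% of hKO cells held G0s2 (26.2% and 29.2% before), against 0.290% and 0.791% of T-like cells. The lipase gene itself, Pnpla2, stood at 35.9 and 30.6 CPM, a log2 ratio of −0.23 with an interval from −0.84 to 0.42. A difference within that interval was not detectable for Pnpla2 at this depth.

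Fitm2 had 2 UMIs in WT hepatocyte-like cells (2.57 CPM, 0.311 to 9.27) and 168 in hKO (45.5 CPM, 38.9 to 52.9), a log2 ratio of 4.15 (2.27 to 7.21). The intervals were far apart, yet the WT value rests on 2 counts. After thinning, 0 of 220 WT cells held Fitm2, with an interval up to 1.66%, against 5.37% of hKO cells (0.575% and 12.1% before thinning). In T-like cells the shares were 0.218% and 0.548%.

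**Figure D2:**
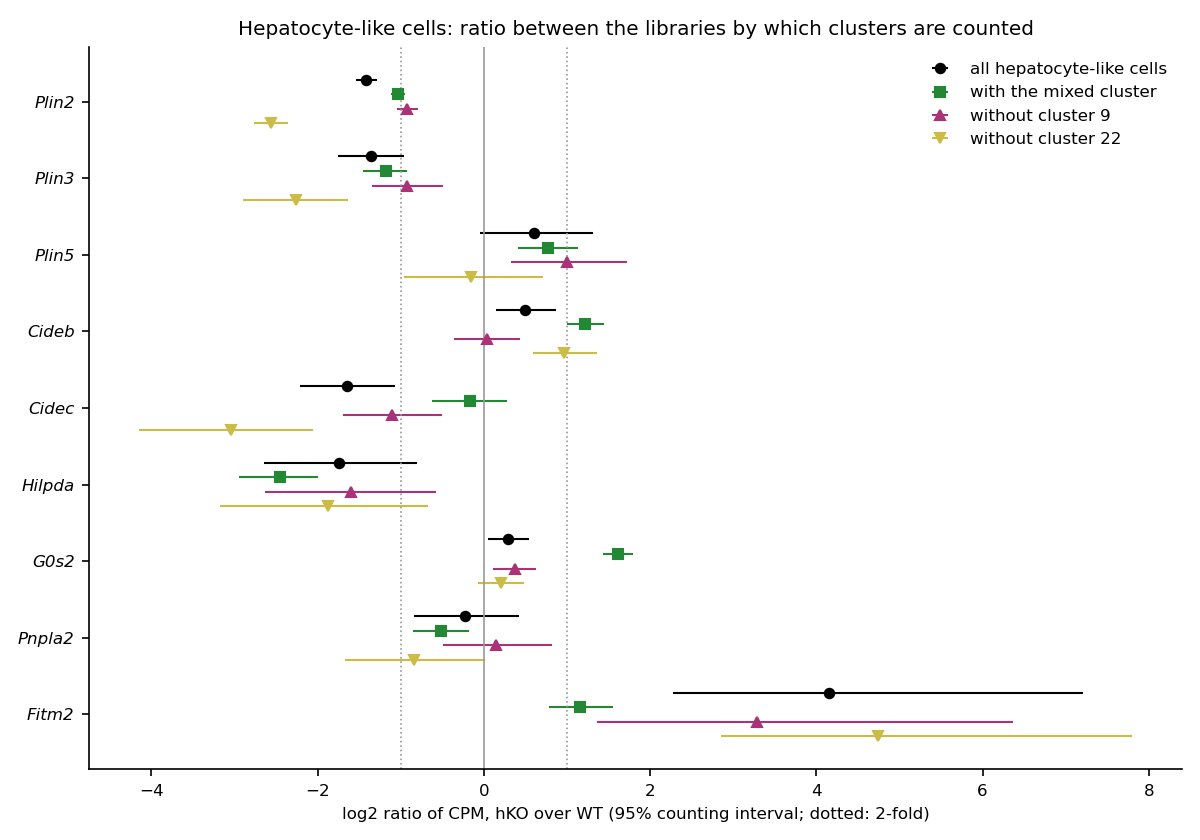
Log2 ratio of CPM, hKO over WT (x axis), of 9 genes (y axis) in hepatocyte-like cells, with 95% counting intervals, for all cells (black circles), with the mixed cluster 25 added (green squares), and without hKO cluster 9 or 22 (triangles). Plin2, Plin3 and Hilpda are below 0 in all 4 sets, Cidec is near 0 with the mixed cluster (−0.17), and Fitm2 is above 0 in all 4, from 1.16 to 4.74.

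The size of these ratios depended on which hepatocyte clusters were counted. In hKO cluster 9, where the 12 abundant hepatocyte genes made up 14.0% of UMIs and mitochondrial UMIs 17.1%, Plin2 stood at 183 CPM, Plin3 at 20.8 and Cidec at 6.93. In hKO cluster 22 (4.88% and 11.1%) they stood at 584, 55.2 and 27.1 CPM. Both clusters were thus below the 1079, 99.6 and 57.3 CPM of WT cluster 20 for each of these genes. Cideb and Fitm2 had the opposite order within hKO: 188 and 72.5 CPM in cluster 9, and 96.5 and 25.2 in cluster 22. Plin5 was at 56.6 CPM in cluster 22 and 24.6 in cluster 9. G0s2 varied less, at 207 CPM in cluster 20, 244 in cluster 9 and 263 in cluster 22.

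Cluster 22 held 21 WT cells as well. The libraries were not alike within it: the 12 hepatocyte genes took 1.46% of UMIs in WT and 4.88% in hKO, and median depth was 1214 and 2180 UMIs. In the WT cells Plin2 had 64 UMIs (1482 CPM) against 584 CPM in the 288 hKO cells, a log2 ratio of −1.34 (−1.71 to −0.96). Plin3 had 8 UMIs (185 CPM) against 55.2 CPM, a ratio of −1.75 (−2.77 to −0.50). The other members had 0 to 6 UMIs in the WT cells of the cluster, and their intervals included 0.

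Without cluster 9 the ratios of Plin2 and Plin3 were −0.92 each, short of 2-fold, with intervals still below 0, and 3 members passed. The share of all genes that passed was not computed for that set. Without cluster 22 the ratios of Plin2 and Plin3 were −2.56 and −2.26. At a mitochondrial limit of 10% Plin2 stood at 1230 and 617 CPM (just short of 2-fold) and Cidec at 61.3 and 37.8 CPM (−0.70), while Plin5 reached 1.10. At a limit of 50%, where 70 WT and 3500 hKO barcodes were hepatocyte-like, Fitm2 had no UMI in WT and gave no call. At that limit a cluster of 493 WT cells with 8 of 9 hepatocyte markers raised stayed unnamed for its low depth and was outside the class.

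**Figure D3:**
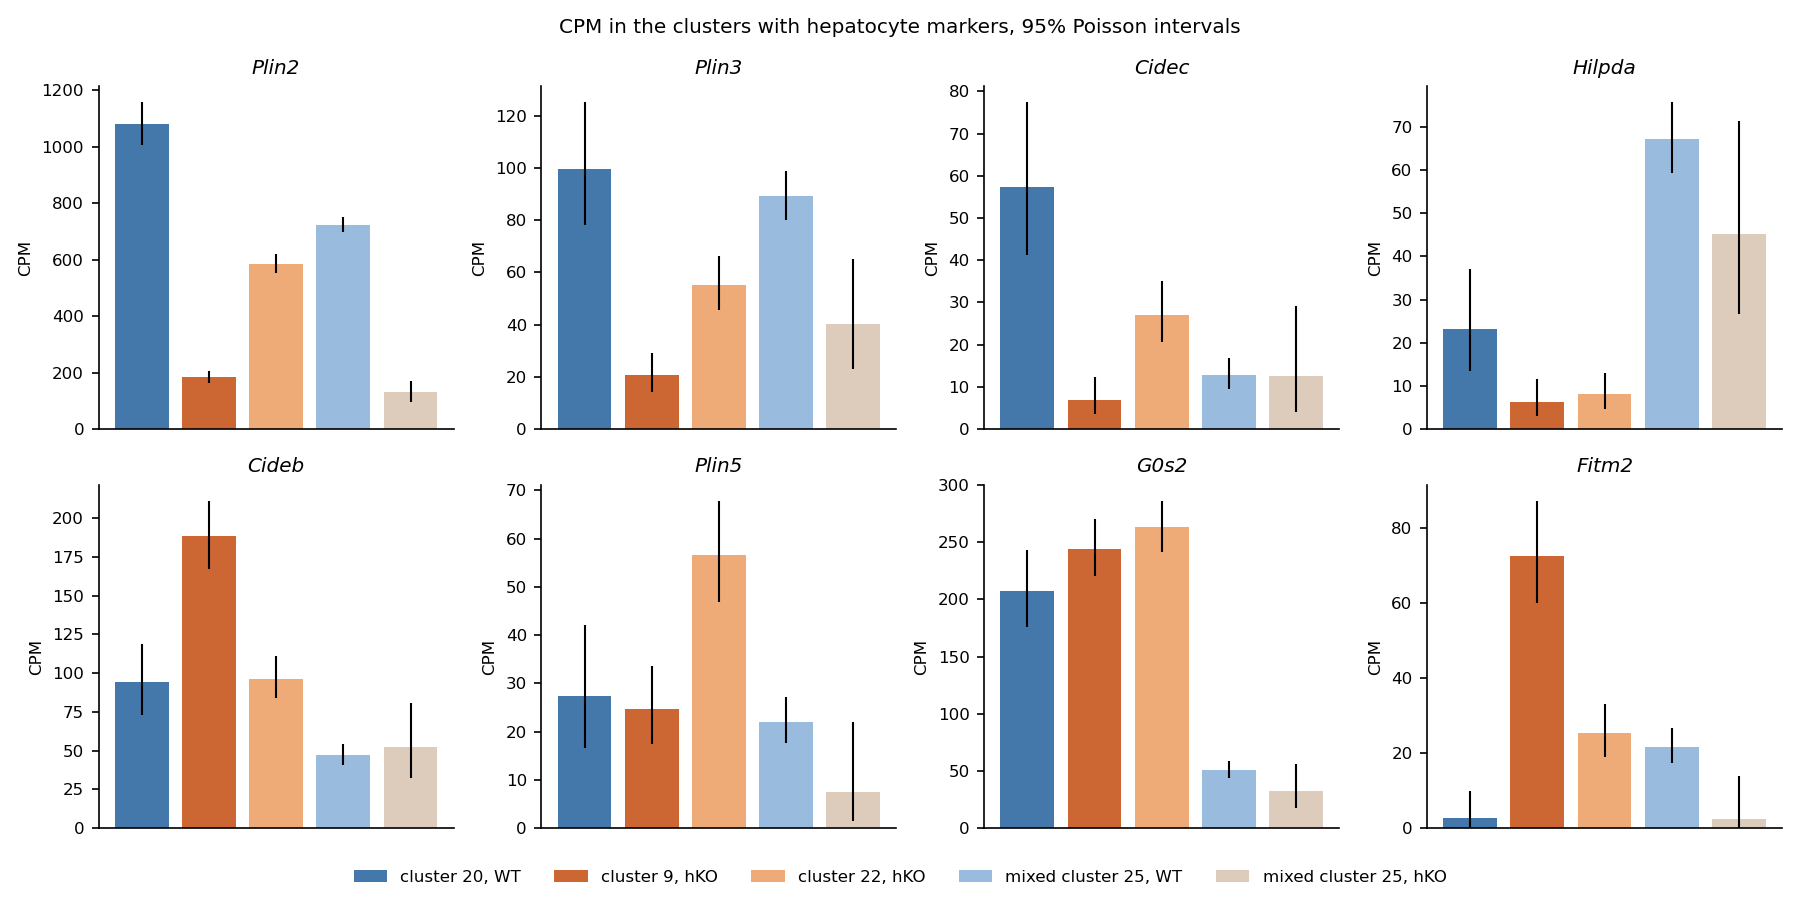
CPM (y axis, from 0, own scale per panel) of 8 genes in the clusters with hepatocyte markers: cluster 20 of WT, clusters 9 and 22 of hKO, and the mixed cluster 25 of each library; bars carry 95% Poisson intervals. Plin2 is 1079 CPM in cluster 20 against 183 and 584 in clusters 9 and 22, and Fitm2 is highest in cluster 9 at 72.5 CPM.

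The mixed cluster 25 changed more. Its WT cells were deep (median 16084.5 UMIs, against 1297 in WT hepatocyte-like cells) and held 2886 Plin2 UMIs, 723 CPM, against 52 UMIs, 130 CPM, in hKO (log2 ratio −2.47, −2.90 to −2.08). Hilpda was at 67.2 and 45.1 CPM there, above the hepatocyte-like level of either library, and G0s2 at 50.9 and 32.6, below it. Fitm2 had 86 UMIs in the WT cells (21.6 CPM) and 1 in the 34 hKO cells (2.51 CPM), a log2 ratio of −3.10 (−8.42 to −0.59). That direction is opposite to the Fitm2 ratio in hepatocyte-like cells, and it rests on 1 hKO UMI in cluster 25. The 12 hepatocyte genes took 5.10% of the UMIs of its WT cells and 0.970% of those of its hKO cells, so its cells differed in that share between the libraries. With this cluster added, 6 members passed 2-fold against 46.0% of all genes. Cidec gave no call (−0.17), Cideb (1.22) and G0s2 (1.61) became higher in hKO, Fitm2 stood at 1.16, and Plin2, Plin3 and Hilpda stayed lower at −1.03, −1.18 and −2.45.

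Across the 10 other classes 41 pairs of a member and a class had the depth to be compared, and 6 passed 2-fold: 3 higher and 3 lower in hKO. Centring each class on the median ratio of its genes made this 4 higher and 1 lower, without a share of all genes to set beside it. Among endothelial-like cells 2 of 5 members passed, against 7.77% of genes, and among macrophage-like cells 1 of 5, against 5.54%. In neutrophil-like cells it was 1 of 5 (14.7% of genes), in B-like cells 1 of 5 (6.97%) and in erythroid-like cells 1 of 2 (45.8%), where the median log2 ratio of all genes was −1.08. None passed in monocyte-like (of 5; 4.93% of genes), conventional dendritic-like (of 3; 4.54%), plasmacytoid dendritic-like (of 3; 5.23%), NK or innate lymphoid-like (of 4; 7.43%) and T-like cells (of 4; 6.61%).

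Pnpla2, the lipase, was lower in hKO in endothelial-like and macrophage-like cells. In endothelial-like cells it had 450 UMIs in WT (52.0 CPM) and 69 in hKO (24.6 CPM), a log2 ratio of −1.08 (−1.47 to −0.71). In macrophage-like cells it had 336 UMIs (47.8 CPM) and 144 (23.8 CPM), a ratio of −1.01 (−1.30 to −0.72). The intervals of the levels were apart in both classes. Both ratios sit close to the 2-fold line: centring on the median ratio gave −0.97 and −0.95, and with doublets kept the macrophage-like value was −0.96, so the calls ended there while the intervals stayed below 0. The class lay in different clusters in the libraries, 402 WT and 726 hKO cells in cluster 7, 778 and 89 in cluster 8, 31 and 776 in cluster 10, and 515 and 133 in cluster 16. Within them Pnpla2 was at 38.1 and 21.1 CPM in cluster 7, 62.5 and 26.6 in cluster 8, and 50.5 and 29.8 in cluster 16, lower in hKO each time, though cluster 8 rests on 3 hKO UMIs and its interval includes 0. Cluster 10 held 2 WT UMIs of Pnpla2. A finer clustering split off macrophage-like cells led by genes of another type, among them 774 hKO and 12 WT cells led by hepatocyte genes and 312 WT and 41 hKO cells led by erythroid genes. Without all such cells the Pnpla2 values were 50.3 and 22.3 CPM (−1.17, −1.51 to −0.85). By subset the differences were smaller and the intervals included 0, at −0.35 (−1.01 to 0.25) in Kupffer-like and −0.45 (−1.28 to 0.32) in lipid-associated cells, and a subcluster of 23 WT and 653 hKO cells gave 0.67 on 1 WT UMI. Endothelial-like cells also lay in different groups: 491 WT and 17 hKO cells were sinusoidal, 63 and 179 of the vessel kind, and 2 and 219 in a subcluster with no name. Pnpla2 was at 51.2 and 24.1 CPM in the largest endothelial-like cluster. In vessel cells it was lower in hKO, with 20 and 22 UMIs (log2 ratio −1.31, −2.25 to −0.36). In sinusoidal cells it was the other way in value, 61.6 CPM in WT and 83.7 in hKO on 8 UMIs, with overlapping intervals (53.9 to 70.2 and 36.1 to 165). Monocyte-like cells did not share this, with 25.8 and 25.2 CPM, nor did T-like cells, with 17.6 and 19.1 CPM. The T-like class included subclusters led by macrophage genes (94 WT and 302 hKO cells, and 42 and 139). The difference between classes was not tested.

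Plin2 in macrophage-like cells had 3443 UMIs in WT (490 CPM) and 1988 in hKO (328 CPM), a log2 ratio of −0.58 (−0.66 to −0.50), short of 2-fold. Without the cells led by genes of another type it was −0.65. Macrophage subsets differed in value. Lipid-associated cells, which digest lipid-rich debris, were named by a list that includes Trem2 and Gpnmb, with 4 of 8 markers raised. In them Plin2 was at 804 CPM in 218 WT cells and 335 in 55 hKO cells, a ratio of −1.26 (−1.48 to −1.05). A subcluster of 23 WT and 653 hKO cells went the other way in value, at 236 and 337 CPM (0.52, −0.10 to 1.21). In Kupffer-like cells, the resident macrophages, it was at 427 CPM in 1033 WT and 397 in 106 hKO cells, a ratio of −0.11 (−0.32 to 0.10). That pool joined a shallow subcluster (710 WT and 39 hKO cells, ratio −0.63, −1.71 to 0.27) and a deep one (323 and 67 cells, −0.12, −0.34 to 0.09), and its median depth was 1263 and 5339.5 UMIs. Clusters 8 and 16 gave Plin2 ratios of −0.73 (−1.42 to −0.10) and −0.20 (−0.38 to −0.03). After thinning, 41.7% of WT (35.1 to 48.6) and 23.6% of hKO (13.2 to 37.0) lipid-associated cells held Plin2, with overlapping intervals. Before thinning the shares were 83.5% and 85.5%, and with cells thinned to 2000 UMIs 58.7% and 53.7%, so no order is read from them. Cluster 7, where Plin2 was at 699 and 344 CPM, gave −1.02. Monocyte-like cells had 471 and 303 CPM, a ratio of −0.64 (−0.73 to −0.54). Endothelial-like cells had 123 and 120 CPM, and T-like cells 64.1 and 82.5 CPM, so Plin2 was not lower in hKO in every class. The T-like class included the subclusters led by macrophage genes, which held more hKO than WT cells. Their part in the T-like value was not tested.

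**Figure D4:**
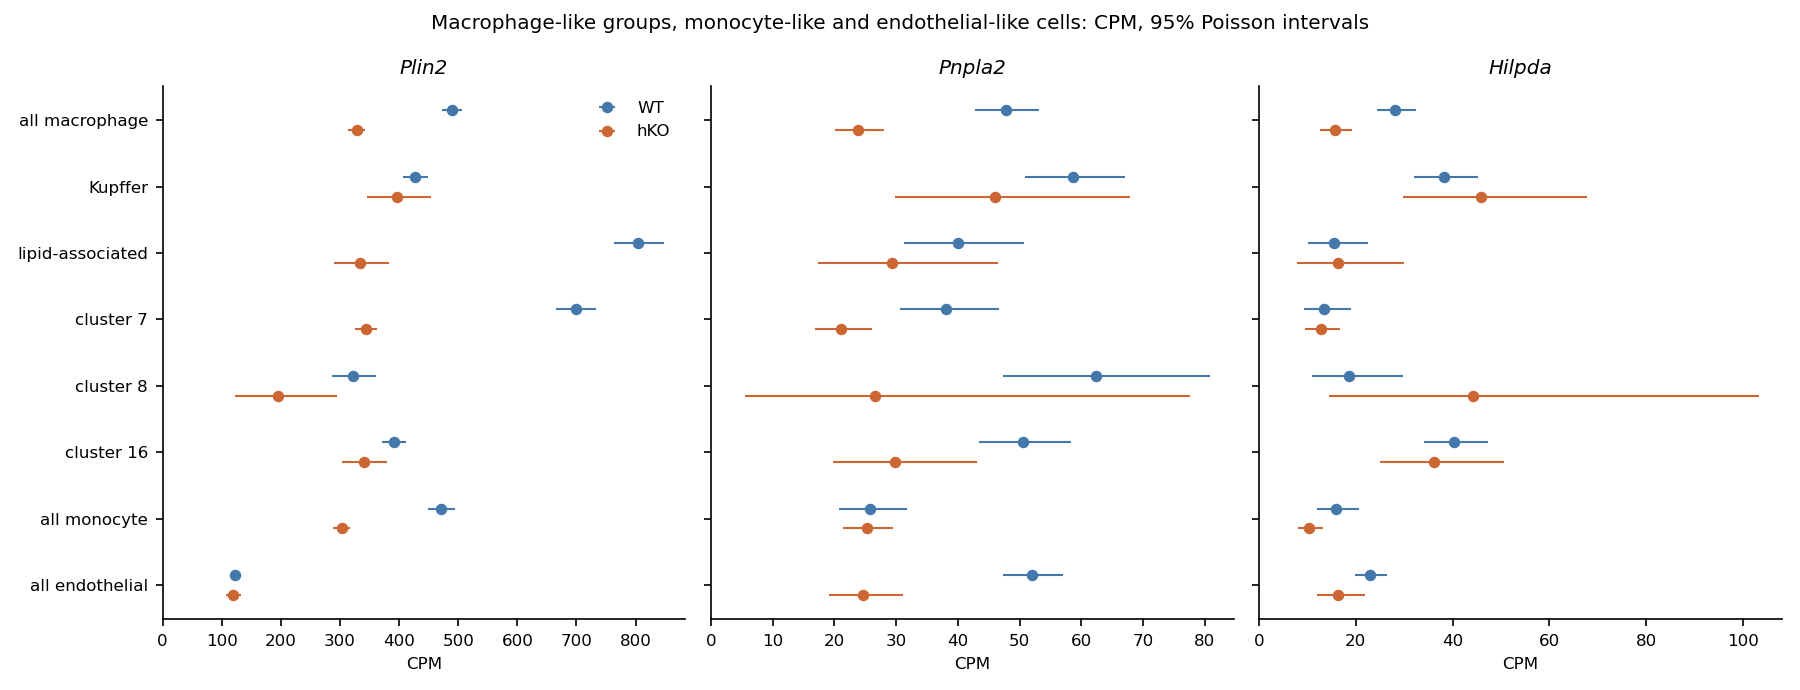
CPM (x axis, from 0) of Plin2, Pnpla2 and Hilpda in macrophage-like groups and clusters and in monocyte-like and endothelial-like cells (y axis), WT in blue and hKO in orange, with 95% Poisson intervals. Plin2 differs most in lipid-associated cells, 804 against 335 CPM, and Pnpla2 is lower in hKO in every row but monocyte-like cells, where the points nearly coincide.

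Hilpda was lower in hKO in neutrophil-like cells, with 79 UMIs in WT (71.5 CPM) and 18 in hKO (25.9 CPM), a log2 ratio of −1.46 (−2.29 to −0.71). In macrophage-like cells it stood at 28.1 and 15.7 CPM (ratio −0.84), in T-like cells at 20.8 and 13.4 (−0.63) and in monocyte-like cells at 15.9 and 10.4 (−0.61), all short of 2-fold with intervals below 0. Its ratio was below 0 in 7 of the 8 classes with the depth, B-like cells being the exception at 0.08. Within the larger macrophage groups the libraries were closer than in the class: Hilpda was at 15.5 and 16.3 CPM in lipid-associated cells (0.08), at 38.2 and 46.0 CPM in Kupffer-like cells (0.27, −0.41 to 0.89), at 13.5 and 12.8 in cluster 7 (−0.08) and at 40.3 and 36.2 in cluster 16 (−0.15). In clusters 8 and 10, with 5 and 4 hKO UMIs, the intervals of the ratio included 0. In all, 1 WT cell held 34 of the 198 macrophage-like UMIs.

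G0s2 in neutrophil-like cells had 4321 UMIs in 499 WT cells (3910.2 CPM, 3795 to 4029) and 1727 in 262 hKO cells (2485 CPM, 2369 to 2605), a log2 ratio of −0.65 (−0.74 to −0.57). The ratio was −0.39 with each cell weighted alike and −1.57 at a mitochondrial limit of 10%, where it passed 2-fold. The share of thinned cells with G0s2 was 57.1% in WT and 64.6% in hKO, the opposite order to the CPM, so no order is read from it. Pnpla2, the target of G0S2, was at 99.5 and 66.2 CPM in these cells (ratio −0.59, −1.12 to −0.08), and Plin2 at 453 and 390.0 CPM (−0.21, −0.43 to 0.00). All 5 members compared in neutrophil-like cells had a ratio below 0, with Plin3 at −0.05 (−1.12 to 0.97).

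The other 3 calls were of G0s2 at low level, each higher in hKO. B-like cells had 13 UMIs in WT (2.92 CPM) and 47 in hKO (13.6 CPM), a log2 ratio of 2.22 (1.31 to 3.23). They lay in different clusters, 1251 WT and 65 hKO cells in cluster 4 and 44 and 1212 in cluster 5. Erythroid-like cells had 3 and 17 UMIs, a ratio of 3.84 (2.05 to 6.26), and endothelial-like cells 28 and 31 UMIs (3.23 and 11.1 CPM, ratio 1.77, 0.99 to 2.56). The 12 hepatocyte genes moved with these values: their share of UMIs was 0.267% (WT) and 0.920% (hKO) in B-like cells, 0.233% and 1.20% in erythroid-like cells, and 0.204% and 0.464% in endothelial-like cells. With that share of the hepatocyte-like profile taken off, the ratios were 0.37 in B-like, 1.34 in erythroid-like and 1.63 in endothelial-like cells, and none gave a call. The same step took the G0s2 ratio from 0.27 to −2.53 in macrophage-like and from −0.01 to −4.34 in monocyte-like cells. In NK or innate lymphoid-like cells it went from −0.23 to −1.51, and each of these became a call of lower in hKO. Only the hepatocyte-like profile was taken off, while most G0s2 UMIs lay in neutrophil-like cells. At a mitochondrial limit of 10% the B-like and erythroid-like values (ratios 1.28 and 4.76) were under the depth needed. T-like cells, just under it, had G0s2 at 2.54 and 9.03 CPM (ratio 1.83, 1.02 to 2.74). In endothelial-like cells 11 of the 31 hKO UMIs were in 1 cell, cluster 3 gave 3.29 and 3.61 CPM (ratio 0.13) and cluster 24, with 25 of those 31 UMIs, 2.89 and 28.9 CPM (1 and 25 UMIs, ratio 3.32, 0.71 to 8.68), and the call ended with doublets kept (0.61) and without cells led by genes of another type (1.40). Cideb and Fitm2 were under the depth needed in each of the 10 other classes and gave no call, and the Fitm2 ratio had an interval including 0 in both dendritic-like classes and in NK or innate lymphoid-like cells. Over these classes Cideb was at 0 to 2.02 CPM in WT and 3.54 to 12.95 in hKO, Fitm2 at 0 to 3.23 and 3.36 to 11.0. The part of free RNA in these low values was not tested beyond that subtraction.

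Related genes of the pathway were counted by list in hepatocyte-like cells, beside the same 42.0% background (18.6% of genes higher and 23.4% lower). Of 11 other coat and surface genes with the depth, 4 were higher and 2 lower in hKO. They included Hsd17b13, a droplet dehydrogenase of hepatocytes, at 195 and 1608 CPM (log2 ratio 3.04), its relative Hsd17b11 (3.18), Mettl7b (2.74) and Rab7 (−1.34). Of 10 triglyceride synthesis genes 7 were higher and 1 lower. Dgat2, which makes triglyceride for secretion and storage, was at 48.8 and 220 CPM (2.18), Gpat3 had 2 and 75 UMIs (2.98, 1.08 to 6.06), Dgat1 3 and 78 (2.46, 0.86 to 4.76), and Lpin1 was lower (−3.09). Of 10 genes in the breakdown list 8 were higher and 2 lower. That list also held Soat1 and Soat2, which make cholesteryl ester, and Soat2 was among the higher ones (3 and 71 UMIs, 2.32). The carboxylesterases Ces1g (6.16), Ces3a (5.65) and Ces1d (2.95) were higher, and Abhd5, the ATGL co-activator CGI-58, was lower at 132 and 17.3 CPM (−2.93, −3.40 to −2.47). Of 9 regulators 2 were higher, Srebf1 (2 and 82 UMIs, 3.11, 1.21 to 6.18) and Mlxipl (1.96), and 3 lower, among them Epas1, which encodes HIF-2α (−1.85), and Cebpb (−1.12). The medians were 0.53, 1.62, 2.50 and −0.11 for the 4 lists, against −0.28 over all genes. With the mixed cluster added 46.0% of all genes passed in either direction. The lists then had 3 higher and 4 lower, 3 and 2, 5 and 2, and 0 and 3. Of the named genes, Hsd17b11 (0.82), Dgat1 (0.54), Dgat2 (0.73), Mlxipl (0.05) and Cebpb (−0.90) then gave no call, and Srebf1 turned to −0.53.

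In macrophage-like cells 5.54% of all genes passed in either direction. There the same lists had 2 of 10, 1 of 8, 5 of 10 and 0 of 8 genes higher in hKO. Only 1 regulator was lower, Epas1 (−1.43). The higher ones included Mettl7b (4.58), Hsd17b13 (3.72), Dgat2 (2.61), Ces3a (5.32), Ces1d (3.68) and Aadac (3.33). Ces1g had 0 WT and 160 hKO UMIs, 62.0-fold higher with the WT count set to a floor of 3. The lower limit of its log2 ratio was 5.64. The share of the 12 hepatocyte genes in macrophage-like cells was 0.302% in WT and 0.654% in hKO. With that profile taken off, Agpat2 (−1.21) and Epas1 (−1.88) were lower and 1 gene was higher, Mgll, the monoglyceride lipase gene, at 13.6 and 41.8 CPM before subtraction (log2 ratio 1.61). Before subtraction Agpat2 was higher in hKO in value, at 9.10 and 14.9 CPM (0.71, 0.23 to 1.19). Its lower value thus rests on the subtraction. Agpat2 and Mgll are named here after their values were seen.

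Over the 22 points of a class in a library, the 3 genes most like each of 4 members were listed by Pearson's r of log2(CPM + 10), among 7569 genes. They were Eif4ebp1 (0.94), Ninj1 (0.93) and Sqor (0.92) for Plin2, and Ddit3 (0.86), Pnrc1 (0.84) and Hspa4l (0.84) for Hilpda. For G0s2 they were Mgam (0.97), Ppp1r3b (0.97) and Steap4 (0.95), all highest in neutrophil-like cells, and for Cidec Bhmt2 (0.995), Acot12 (0.995) and 2010003K11Rik (0.992), all highest in WT hepatocyte-like cells. Among the members themselves r was 0.97 for Plin5 and Cideb, 0.81 for Hilpda and Pnpla2, and 0.07 for Plin2 and Fitm2. Plin5, Cideb, Cidec and Fitm2 had the depth to be compared in hepatocyte-like cells alone. Their values of r therefore rest mainly on the hepatocyte-like points. The points share 2 libraries and their free RNA, so these values are descriptions.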

How the data were processed

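The counts are whole UMI numbers that the authors deposited without normalization; Cell Ranger 7.1.0 made them, per the file headers. Per the submitters' processing notes, R 3.0, Seurat 3 and build mm9 were used. Promoters are of another build and were matched by symbol (10 of 10 members). From the counts, barcodes with at least 200 genes, 500 UMIs and at most 25% mitochondrial UMIs were kept, and Scrublet doublets were removed (scanpy 1.11.5; its own threshold in WT, the top 9.16% of scores in hKO, where it called 0.0175%). Both libraries were clustered together without integration (2000 variable genes, 30 components, 15 neighbors, Leiden resolution 1.0), giving 32 clusters, of which 3 stayed unnamed. The 11 classes with at least 100 cells in both libraries entered the comparison. UMIs were summed per class and scaled to CPM. Intervals are exact Poisson for CPM, Clopper-Pearson for shares of cells and exact conditional binomial for ratios. The ratio code was tested on simulated data. Genes of 4 related lists were named by the largest ratios, up to 4 a list and class, with exceptions stated where they occur. The members and lists were chosen with earlier results of these data known. The alternatives were other cell filters, doublets kept, a finer clustering, other scalings, free RNA subtraction, cluster membership and other thresholds.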

Additional observations from a re-analysis of the deposited data

Results flagged for a closer look

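Barcodes over the mitochondrial limit of 25% were outside the main comparisons, and entered only in part where the limit was set to 50%: 2645 in WT with 2786408 UMIs, and 6864 in hKO with 9785250 UMIs. In these the level of 3 members was above that of WT by more than counting error, also with mitochondrial UMIs left out of the total. Cideb was at 49.67 CPM in hKO (486 UMIs) and 7.90 in WT, Fitm2 at 29.84 CPM (292 UMIs) and 4.67, and Plin5 at 11.55 CPM (113 UMIs) and 0.718 (2 UMIs). The summed share of the 12 hepatocyte genes was 4.66% in these hKO barcodes and 2.25% in those of WT. Plin2 went the other way there, at 128 CPM in hKO and 209 in WT. No group has more than 1 library, so no sample could be set against the others of its group.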

How the results depend on the processing

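In hepatocyte-like cells 5 members passed 2-fold (1 higher and 4 lower in hKO), and in the other classes 6. The hepatocyte-like count was 3 with a floor of 50 CPM, 1 with a fold of 4 and 3 without cluster 9, and between 4 and 6 in the other alternatives. The other classes gave 2 with a floor of 50 CPM, 2 with a fold of 4 and 10 at a mitochondrial limit of 50% (6 higher, 4 lower), and with free RNA subtracted 1 higher and 8 lower. The share of all genes that passed was computed for the main setting and the mixed cluster alone. The counts under other settings are therefore not read as results about the members. Of 491 alternative values of 50 ratios, 431 stayed within the interval of the ratio, 60 moved outside it, and no called ratio changed sign. Leaving out cluster 9 or 22, or subclusters led by another type, was chosen after seeing the data. No paired analysis was possible because each group has 1 library, and none could be left out for the same reason. Depth limited Plin4 in every class and Plin5, Cideb, Cidec and Fitm2 outside hepatocyte-like cells. The cause of each move was not tested.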

Other observations

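An unnamed cluster of 222 WT and 478 hKO cells, which had markers of both T cells and macrophages, held Plin2 at 360 CPM (WT) and 214 CPM (hKO), a ratio of −0.75 on the log2 scale (interval −0.88 to −0.62), and Pnpla2 at 36.0 and 24.6 CPM (−0.55, −0.95 to −0.14). Among classes too small to compare, Plin2 was at 122 CPM in 21 WT and 84.1 in 11 hKO stellate or fibroblast-like cells (10 and 5 UMIs). G0s2 in these cells had 46 UMIs in WT (563 CPM, 412 to 751) and 3 in hKO (50.5 CPM, 10.4 to 147). Plin2 was at 126 and 92.3 CPM in 32 and 28 mast or basophil-like cells.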
